A study of Rattus norvegicus with 16 samples.

Results

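The complement genes C3 and C1qb were examined in the pontine nuclei of the rat, brainstem nuclei that relay cortical input to the cerebellum. All probe sets whose gene symbol in the platform annotation is C3 or C1qb were taken, which gave 4 probe sets for 2 genes, out of 8799 probe sets and 4358 genes on the array. C3 is measured by M29866_s_at and X52477_at, and C1qb by X71127_at and X71127_g_at. The study injured the axons of pontine neurons at a distance from the nuclei and asked how gene expression changed in the nuclei that hold their cell bodies.

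Complement is a cascade of proteins that tags cells, debris and synapses for removal. C1q, built from A, B and C chains, of which C1qb encodes the B chain, binds the target and starts the classical pathway through the proteases C1r and C1s. C3 is the protein on which the classical, lectin and alternative pathways meet, and its cleavage leaves fragments that phagocytes recognise. In the brain C1q is known mainly as a product of microglia, and C3 as a product of reactive astrocytes and microglia.

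The 16 arrays fell into 7 groups. On the lesion side there was 1 array each at days 4, 10 and 37 after saline, after lysolecithin (a lipid used to strip myelin from axons) and after axonal transection. On the contralateral side there was 1 array each at days 10 and 37 for the same 3 interventions, and the submitters' design names these contralateral nuclei as the controls. The last array was from healthy, uninjured pontine nuclei. Strain, age, sex, the number of animals behind each array and whether both sides came from the same animals are not given in the sources used here. Each condition was measured once, and days 4, 10 and 37 of an intervention serve as its replicates. The SDs given below, and the fit against all control arrays, therefore include change over time. The lesion-side and contralateral fits had day as a term, which takes out the change that the interventions share.

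Between 39.9% and 47.1% of probe sets were called Present on an array, and the share was lowest on the healthy array. Log2 values of the 15 other arrays correlated with each other at r = 0.95 to 0.99, and those of the healthy array with the rest at r = 0.91 to 0.95, so the healthy array stood apart. As a check of the labelled tissue, all 7 neuronal marker genes on the array were called Present on every array. RNA integrity was read from 3' to 5' signal ratios. That of beta-actin differed in part by intervention on the lesion side. It was 1.41 to 1.68 after saline, 1.20 to 1.44 after lysolecithin and 1.07 to 1.42 after transection. The contralateral arrays did not keep this order, at 1.27 to 1.35 after saline, 1.16 to 1.17 after lysolecithin, and 1.07 and 1.53 after transection. The GAPDH ratio of the lesion arrays overlapped between all interventions, at 1.09 to 1.16, 1.03 to 1.16 and 1.07 to 1.19 in the same order. In this bulk tissue, fewer cells of a type and less RNA per cell cannot be told apart.

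The 250 bases upstream of each gene's annotated start (RefSeq, GRCr8) are shown because both genes were high on many of the same arrays. Capitals mark short motifs found on either strand, and all positions count bases upstream of the start.
C3, chr9:2201340-2201589, minus strand: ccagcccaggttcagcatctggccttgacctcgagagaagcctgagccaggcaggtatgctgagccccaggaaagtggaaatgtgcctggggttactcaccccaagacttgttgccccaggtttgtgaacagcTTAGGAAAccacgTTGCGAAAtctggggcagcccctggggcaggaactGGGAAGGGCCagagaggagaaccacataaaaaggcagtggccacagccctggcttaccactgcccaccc
C1qb, chr5:154407828-154408077, minus strand: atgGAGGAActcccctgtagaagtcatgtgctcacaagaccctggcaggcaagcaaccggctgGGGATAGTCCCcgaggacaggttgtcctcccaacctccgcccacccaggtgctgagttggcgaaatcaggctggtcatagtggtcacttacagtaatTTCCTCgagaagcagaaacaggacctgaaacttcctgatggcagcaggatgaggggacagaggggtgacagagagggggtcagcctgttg

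In the C3 promoter the core letters bound by C/EBP factors, TTNNGNAA, began 117 and 104 bases upstream, the second one reading as a match on both strands. The same letters occurred in 36.8% of 27457 rat promoters of this length. An NF-kB-like run (GGGA, any 4 bases, CC) began 69 bases upstream of C3, and 2 overlapping copies on opposite strands began 187 and 186 bases upstream of C1qb, against 16.8% of all promoters holding one. The PU.1 core, GAGGAA, was found 247 and 90 bases upstream of C1qb (the latter on the opposite strand, as TTCCTC) and in 23.2% of all promoters. It was not found in the C3 window, and C/EBP core letters were not found in the C1qb window. A STAT site (TTCNNNGAA), an interferon response element (GAAA, any 2 bases, GAAA) and an AP-1 site (TGANTCA) were found in neither window. These matches are letters only, and no binding was measured.

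C3 was higher in the pontine nuclei after transection and after lysolecithin than after saline. Values are MAS5 Signal, a linear intensity in arbitrary units, with a Detection call of Present, Marginal or Absent. With the probe set M29866_s_at, which has the higher mean signal, the saline lesion arrays gave 282.4, 318.7 and 367.6 at days 4, 10 and 37, all called Absent. The transection lesion arrays gave 626.0 (Marginal), 577.7 and 660.0 at the same days, the last 2 called Present. The lysolecithin lesion arrays gave 613.3, 549.1 and 639.2, all called Present. Every injured lesion array was therefore above every saline lesion array, and no day stood out within an intervention.

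The contralateral nuclei showed the same order. After saline the contralateral arrays gave 344.4 at day 10 and 296.3 at day 37, both Absent, and the healthy array gave 244.7, also Absent. After transection they gave 699.1 and 666.3, and after lysolecithin 1039.7 and 729.9, all Present. The highest C3 signal of the study was thus on a contralateral array, that of lysolecithin at day 10, and all 10 arrays of lysolecithin or transection, on either side, lay above the 5 saline arrays and the healthy one.

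**Figure D1:**
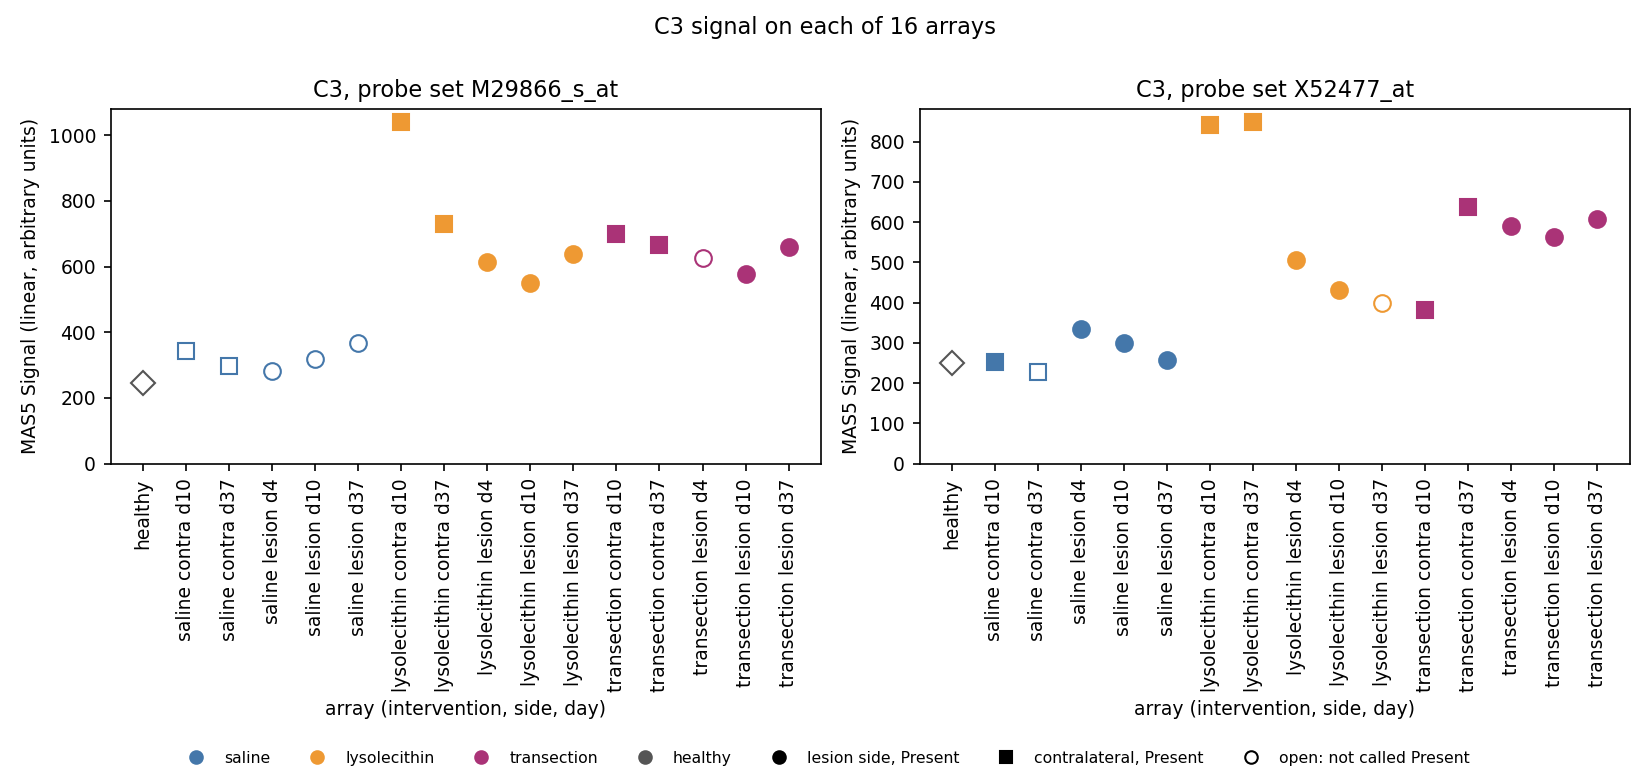
MAS5 Signal of the 2 C3 probe sets (linear arbitrary units, from 0) on each of the 16 arrays; colours are interventions, circles the lesion side, squares the contralateral side, the diamond the healthy array, and open symbols were not called Present. With M29866_s_at the saline and healthy arrays lie between 244.7 and 367.6 and the other 10 between 549.1 and 1039.7.

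X52477_at gave the same separation. Signals were 333.5, 299.9 and 258.5 on the saline lesion arrays, 591.7, 563.8 and 607.6 on the transection lesion arrays, and 506.1, 431.2 and 398.3 on those of lysolecithin (days 4, 10 and 37). On the contralateral side they were 252.7 and 228.9 after saline, 381.2 and 638.5 after transection, and 840.8 and 849.9 after lysolecithin (days 10 and 37), with 249.1 on the healthy array. All 10 lysolecithin and transection arrays were again above the 6 others. This probe set was called Present on 13 of 16 arrays, including all 3 saline lesion arrays. It was Absent on the lysolecithin lesion array of day 37 (398.3), the saline contralateral array of day 37 and the healthy array. M29866_s_at was Present on 9 of 16, all of them lysolecithin or transection arrays. It thus reached the 3 Present arrays needed for testing only through the groups where it was high. The log2 values of both C3 probe sets correlated at r = 0.88 over the 16 arrays, which share tissue and scaling.

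A split of this kind was uncommon on the array: 0.453% of 4413 tested probe sets were higher on all 10 lysolecithin and transection arrays than on the 5 saline arrays and the healthy one. That grouping was chosen after the values were seen and is given as a description. On the lesion side alone, 7.93% of tested probe sets had all 3 transection arrays above all 3 saline arrays and 11.4% had all 3 lysolecithin arrays above them. In the contralateral nuclei the same shares were 14.5% for transection and 15.8% for lysolecithin.

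On the lesion side C3 rose after transection by 0.92 on the log2 scale (SE 0.14, 95% interval 0.61 to 1.22, limma adjusted p = 0.0315), with 3 arrays in each group and day as a term. M29866_s_at was Absent on every saline array, so the estimate is given as at least 1.89-fold. That wording covers the Absent saline level only, and the 95% interval still applies. X52477_at gave a difference of 0.95 (SE 0.14, limma adjusted p = 0.0315), or 1.94-fold. At this threshold 0.725% of 4413 tested probe sets were called, 24 higher and 8 lower. The call was lost when the saline array of day 4 (adjusted p = 0.148) or day 10 (0.0867), the transection array of day 4 (0.0723) or day 10 (0.177) or the lysolecithin array of day 4 (0.0551) was left out, in the same limma fit, while the difference stayed between 0.82 and 0.97. It was also lost without the day term (adjusted p = 0.0762), without a detection filter (0.133) and without the intensity trend in the variance (0.114).

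After lysolecithin C3 rose on the lesion side by 0.87 on the log2 scale (SE 0.14, limma adjusted p = 0.0358), 3 arrays against 3. The 95% interval was 0.56 to 1.17, and the fold, in the same sense, at least 1.83. Here 0.159% of tested probe sets were called, all 7 of them higher. X52477_at differed by 0.56 (SE 0.14, limma adjusted p = 0.104), or 1.47-fold, and did not pass. The call therefore rests on M29866_s_at, which reached the 3 Present arrays needed for testing only through lysolecithin and transection arrays. The call on M29866_s_at was lost on leaving out the saline array of day 4 (adjusted p = 0.213) or day 10 (0.0931), the lysolecithin array of day 4 (0.416), day 10 (0.0725) or day 37 (0.0901) or the transection array of day 37 (0.0513) in the limma fit, with differences of 0.77 to 0.92. Quantile normalization (adjusted p = 0.0536), median centring (0.0519), the deposited value table (0.0867), the fit without the day term (0.0853), no detection filter (0.203) and no intensity trend (0.0859) lost it too.

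The probe sets differed on whether C3 separated transection from lysolecithin, and neither passed the test. The lesion-side difference, transection minus lysolecithin, was 0.05 on the log2 scale (95% interval -0.26 to 0.35, limma adjusted p = 0.916) with M29866_s_at. With X52477_at it was 0.39 (95% interval 0.08 to 0.71, limma adjusted p = 0.264), against 0.476% of probe sets called in this comparison, and the 3 transection arrays, at 563.8 to 607.6, lay above the 3 lysolecithin arrays, at 398.3 to 506.1. Nor did C3 differ between days beyond the spread: day 10 minus day 4 was -0.03 (adjusted p = 0.934) and day 37 minus day 10 was 0.20 (adjusted p = 0.733) in the limma fit of the 9 lesion arrays. Of all tested probe sets 0.0453% were called in the first of these, 1 each for Vim and Hspb1, which were named after their values were seen, and 0% in the second, where 346 had an unadjusted p under 0.05.

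In the contralateral nuclei C3 after lysolecithin exceeded saline by 1.40 on the log2 scale (SE 0.23, limma adjusted p = 0.0683), with 2 arrays in each group. In the sense used above this is at least 2.65-fold. X52477_at differed by 1.75 (limma adjusted p = 0.0683), or 3.36-fold. After transection the difference was 1.06 (SE 0.23, limma adjusted p = 0.594), at least 2.08-fold, and 0.99 with X52477_at. None of these passed with 2 residual degrees of freedom, where 0.0227% of probe sets were called for lysolecithin and 0% for transection (139 with an unadjusted p under 0.05). The lysolecithin difference passed the limma threshold in 4 of the 6 fits that left out 1 array, those without the saline array of day 10 (adjusted p = 0.00208) or day 37 (0.000517) and without the transection array of day 10 (0.00775) or day 37 (0.0066), and the transection difference in 1, without the saline array of day 37 (0.0303).

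In the order of group means on the log2(Signal + 16) scale, C3 (M29866_s_at) was lowest on the healthy array, at 8.03. The saline groups followed at 8.39 ± 0.15 (SD, n = 2) on the contralateral and 8.40 ± 0.18 (n = 3) on the lesion side, with overlapping arrays. All 6 of these arrays were called Absent, so the order among the healthy and saline groups is between levels not above background. Lysolecithin lesion, at 9.27 ± 0.11 (n = 3), and transection lesion, at 9.31 ± 0.09 (n = 3), overlapped as well. Transection contralateral came next at 9.45 ± 0.05 (n = 2) and lysolecithin contralateral was highest at 9.79 ± 0.35 (n = 2). The step between the saline lesion and lysolecithin lesion groups was larger than the SDs on both sides of it. So was the smaller step from transection lesion to transection contralateral, where 0.13 separated means with SDs of 0.09 and 0.05. The other steps were not, leaving aside the single healthy array.

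C1qb was also high on lysolecithin and transection arrays, and its lesion signal was highest at day 4. The day difference did not pass the limma threshold (adjusted p = 0.172 for day 10 minus day 4). X71127_at, called Present on all 16 arrays, gave 1951.0, 1280.5 and 1228.4 on the saline lesion arrays at days 4, 10 and 37. The lysolecithin lesion arrays gave 2671.9, 1640.1 and 1702.8, and the transection lesion arrays 2133.5, 1850.9 and 1671.6. In each intervention day 4 was the highest of the 3 days, and the saline array of day 4 overlapped the injured arrays of later days.

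In the contralateral nuclei X71127_at gave 1059.7 and 1116.2 after saline at days 10 and 37, and the healthy array 1013.7. The lysolecithin arrays gave 3684.1 and 1927.3, and the transection arrays 2690.1 and 1884.1. The 4 contralateral arrays of the injured interventions were thus above the saline ones without overlap, and day 10 was above day 37 in both interventions.

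**Figure D2:**
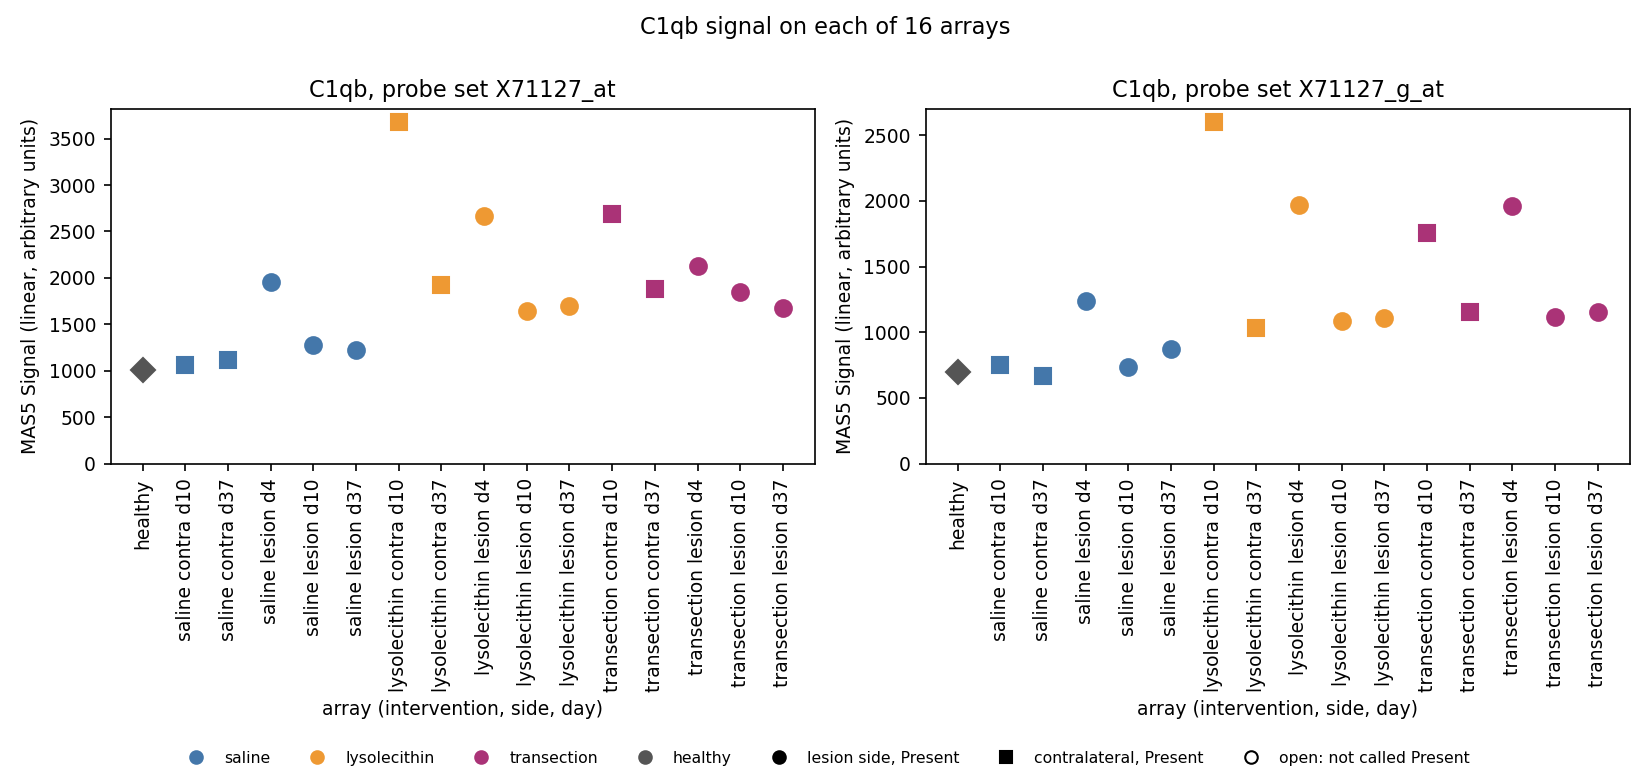
MAS5 Signal of the 2 C1qb probe sets (linear arbitrary units, from 0) on each of the 16 arrays, with colours and symbols by intervention and side. The lysolecithin contralateral array of day 10 is the highest with both, at 3684.1 and 2601.4, and the saline lesion array of day 4 is the highest of the saline arrays.

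X71127_g_at followed the same course, with r = 0.95 between the log2 values of both C1qb probe sets over 16 arrays. Its lesion signals at days 4, 10 and 37 were 1236.9, 734.1 and 874.2 after saline, 1966.0, 1086.9 and 1110.2 after lysolecithin, and 1957.6, 1114.1 and 1154.0 after transection. Contralateral signals at days 10 and 37 were 750.8 and 668.7 after saline, 2601.4 and 1032.0 after lysolecithin, and 1753.8 and 1154.8 after transection, and the healthy array gave 698.0. Day 4 was again highest in every lesion series, and day 10 was above day 37 on the contralateral side of lysolecithin and of transection.

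None of the C1qb differences passed the threshold in the limma fits. On the lesion side transection minus saline was 0.36 on the log2 scale (SE 0.13, adjusted p = 0.197), or 1.29-fold, and 0.55 (adjusted p = 0.087) with X71127_g_at. Lysolecithin minus saline was 0.42 (SE 0.13, adjusted p = 0.120), or 1.34-fold, and 0.52 (adjusted p = 0.104) with X71127_g_at. The difference between transection and lysolecithin was -0.06 (95% interval -0.34 to 0.23, adjusted p = 0.888).

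The day 10 minus day 4 difference of C1qb over the 9 lesion arrays was -0.50 on the log2 scale (SE 0.13, limma adjusted p = 0.172), with a lower day 10 in 3 of 3 interventions. X71127_g_at gave -0.80 (SE 0.13, limma adjusted p = 0.0603). Day 37 minus day 10 was -0.05 (limma adjusted p = 0.935). C1qb on the contralateral side differed from saline by 1.28 after lysolecithin (SE 0.26, limma adjusted p = 0.134), or 2.43-fold, and by 1.04 after transection (SE 0.26, limma adjusted p = 0.877), or 2.05-fold. Without the saline contralateral array of day 37 these became 1.68 (limma adjusted p = 1.01e-05) and 1.44 (0.000621), each with 1 residual degree of freedom, and lysolecithin also passed without the transection contralateral array of day 10 (0.0177) or day 37 (0.0123).

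Group means of C1qb (X71127_at, log2(Signal + 16)) rose from 10.01 on the healthy array to 10.11 ± 0.05 (SD, n = 2) for saline contralateral and 10.52 ± 0.37 (n = 3) for saline lesion. Transection lesion stood at 10.89 ± 0.18 (n = 3), lysolecithin lesion at 10.94 ± 0.39 (n = 3), transection contralateral at 11.15 ± 0.36 (n = 2) and lysolecithin contralateral at 11.39 ± 0.66 (n = 2). From saline lesion upward, each group overlapped the next in this order.

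**Figure D3:**
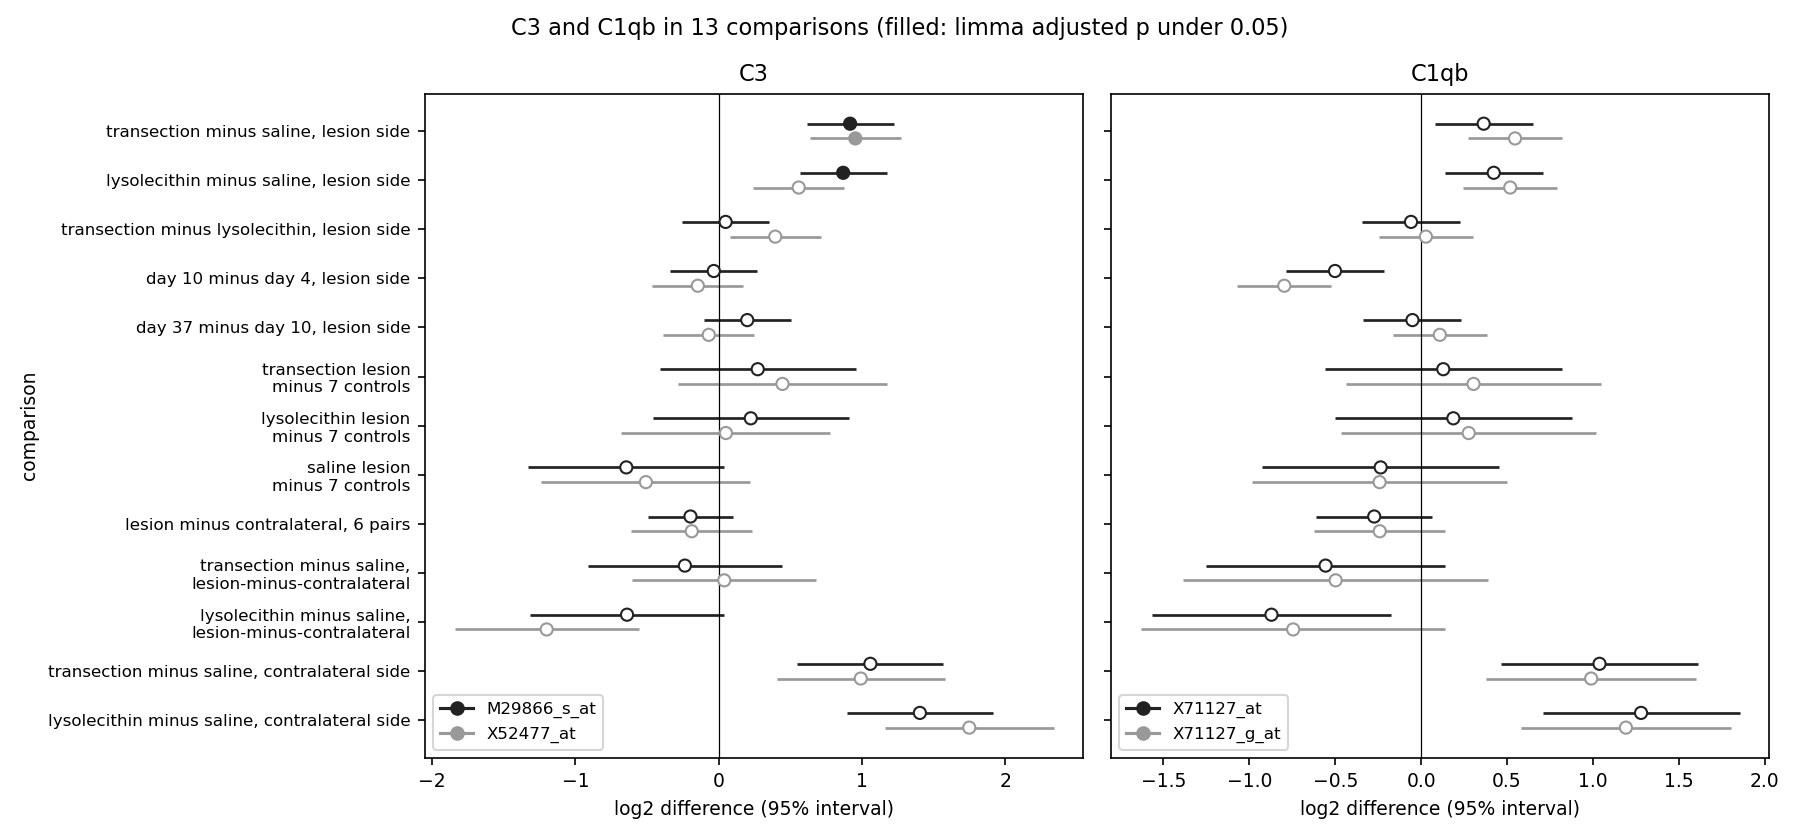
Log2 differences of C3 (left) and C1qb (right) in the 13 comparisons, with 95% intervals from limma; black is the probe set with the higher mean signal, grey the other, and filled points have an adjusted p under 0.05. Filled points are C3 after transection (0.92 and 0.95) and after lysolecithin (0.87), each against saline on the lesion side.

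Because the contralateral nuclei were the named controls, each lesion array of days 10 and 37 was set against its own contralateral array. C3 (M29866_s_at, log2 lesion minus contralateral) gave -0.11 and 0.30 after saline, both between levels not above background (all 4 arrays Absent), -0.90 and -0.19 after lysolecithin, and -0.27 and -0.01 after transection (days 10 and 37). C1qb (X71127_at) gave 0.27 and 0.14 after saline, -1.16 and -0.18 after lysolecithin, and -0.54 and -0.17 after transection. With these probe sets the lesion side was the lower one on all 4 lysolecithin and transection pairs, but the other probe sets differed on some. X52477_at of C3 gave 0.23 and 0.16 after saline, -0.94 and -1.06 after lysolecithin, and 0.55 and -0.07 after transection, so that the lesion side was the higher one at day 10 of transection. X71127_g_at of C1qb gave -0.03 and 0.38 after saline, -1.25 and 0.10 after lysolecithin, and -0.65 and 0.00 after transection. Of the 4 lysolecithin and transection pairs, the lysolecithin pair of day 10 had the lower signal on the lesion side with all 4 probe sets. On the transection pair of day 37 all 4 probe sets lay between -0.17 and 0.00.

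Over the 6 pairs the lesion minus contralateral difference was -0.20 for C3 (SE 0.14, limma adjusted p = 0.946) and -0.27 for C1qb (SE 0.16, limma adjusted p = 0.945), and 0% of 4413 probe sets were called, with 219 at an unadjusted p under 0.05. The test of whether the side difference itself differed from that of saline gave -0.64 for C3 and -0.87 for C1qb after lysolecithin and -0.24 and -0.56 after transection. For C3 these rest on the saline pairs called Absent with M29866_s_at, and X52477_at gave -1.20 and 0.039. No probe set passed in either of these tests (0% called, with 135 and 144 at an unadjusted p under 0.05 in limma).

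Against all 7 control arrays, the 6 contralateral ones and the healthy one, the difference of C3 was 0.27 on the log2 scale after transection (SE 0.33, limma adjusted p = 0.792), 0.22 after lysolecithin (limma adjusted p = 0.972) and -0.64 after saline (limma adjusted p = 0.407). For C1qb these were 0.13, 0.19 and -0.24. These 3 comparisons share their controls, which spanned 244.7 to 1039.7 for C3. One probe set was called for transection (0.0227%), for Jun, named after its values were seen, and 0% for lysolecithin and saline, with 205 and 549 at an unadjusted p under 0.05.

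The complement system was examined more widely with a list of 51 genes that includes C3 and C1qb. Of these, 23 had a probe set on the array and 13 had one called Present on at least 3 arrays. Both members count among the 13, and among those higher than saline in each comparison below. The counts and medians are therefore partly those of the members themselves. Against saline on the lesion side, 12 of the 13 were higher and 1 lower after transection, with a median log2 difference of 0.24, beside 50.6% higher and a median of 0.00 over all tested probe sets. After lysolecithin 10 were higher and 3 lower, with a median of 0.18, beside 53.1% higher and a median of 0.02. Of the 13, C3 alone passed the limma threshold in either comparison. On the contralateral side 7 were higher and 6 lower after transection (median 0.06) and 10 and 3 after lysolecithin (median 0.27). Of all tested probe sets 47.9% and 46.6% were higher there.

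Upstream of C3, the proteases C1r and C1s and the lectin-pathway protease Masp1 did not pass in either lesion-side comparison. C1r differed from saline by 0.24 after transection and by 0.52 after lysolecithin (SE 0.19, limma adjusted p = 0.162), and was called Present on 5 of 16 arrays. Properdin (Cfp), which stabilises the alternative-pathway convertase, differed by 0.13 and 0.14. C1qc, which encodes the C chain of C1q, was Absent on all 16 arrays with both of its probe sets, and C1qa had no probe set under that symbol. The lectin Mbl2, factor D (Cfd) and the terminal components C8b and C9 were also called Present on no array.

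Of the inhibitors, Serping1 and Clu separated the arrays as C3 did. Serping1 encodes the C1 inhibitor, which blocks C1r and C1s. Its signal was 149.3 to 286.0 on the 5 saline arrays and 250.0 on the healthy array, and 314.1 to 570.7 on the 10 lysolecithin and transection arrays. It differed from saline on the lesion side by 0.68 after transection (SE 0.18, limma adjusted p = 0.105) and by 0.85 after lysolecithin (SE 0.18, limma adjusted p = 0.0749), and on the contralateral side by 0.84 and 1.31.

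Clu encodes clusterin, an inhibitor of the terminal complex that astrocytes make in quantity. Clu signal was 11892.5 to 14457.6 on the saline arrays, 14909.0 on the healthy array and 15260.2 to 22128.6 on the other 10. The lesion-side difference from saline was 0.50 after transection (SE 0.12, limma adjusted p = 0.0897) and 0.39 after lysolecithin (SE 0.12, limma adjusted p = 0.125). Neither gene passed, though neither overlapped between the 10 lysolecithin and transection arrays and the others, a split seen in 0.453% of tested probe sets.

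The membrane inhibitor Cd59b and the regulator Cr1l stayed within 0.17 of saline on the log2 scale on the lesion side, and vitronectin (Vtn) within 0.11. Cd55 and Cd46, inhibitors on the cell surface, were called Present on no array. Among receptors, C3ar1, which binds the C3a fragment, differed by 0.52 and 0.40 after transection and lysolecithin (SE 0.30) and was called Present on 6 arrays. C1qbp, a mitochondrial protein that binds the globular heads of C1q, differed by -0.11 and -0.12. C5ar1 and Itgam, a chain of the C3 fragment receptor of phagocytes, were called Present on no array.

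**Figure D4:**
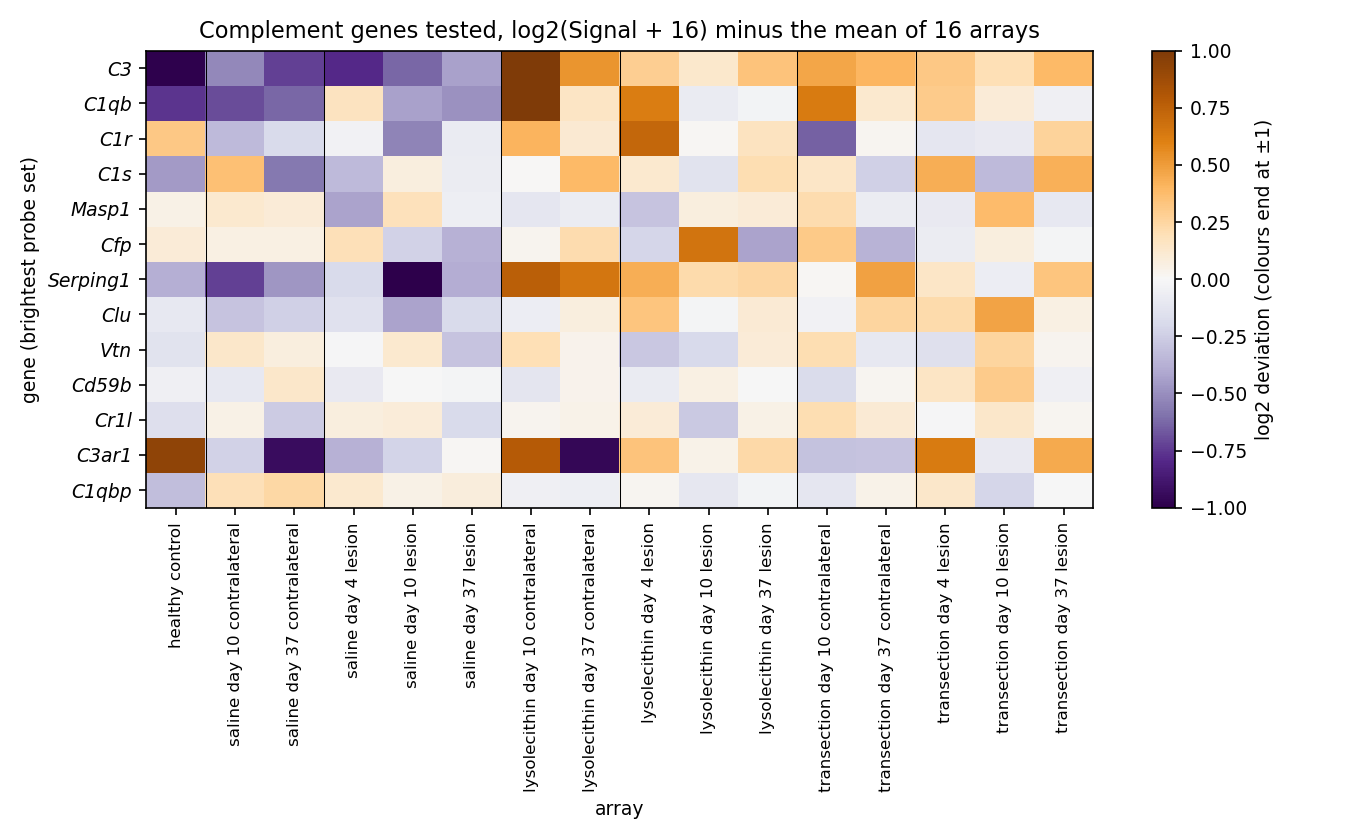
Log2(Signal + 16) of the 13 tested complement genes on each array, as the deviation from the gene's mean over 16 arrays (orange higher, purple lower, colours end at ±1). The rows of C3, C1qb and Serping1 are mostly purple on the healthy and saline arrays and mostly orange on the lysolecithin and transection arrays, while Cd59b and Cr1l change little.

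Markers of microglia and macrophages had higher signal after both injuries than after saline, as C3 and C1qb did. Of 23 listed genes 11 were on the array and 8 were tested, and all 8 were higher than saline in each of the 4 comparisons with it, with median log2 differences of 0.32 (transection) and 0.46 (lysolecithin) on the lesion side and 0.77 and 0.86 on the contralateral side. Over all tested probe sets, in the same order, 50.6%, 53.1%, 47.9% and 46.6% were higher than saline. These shares also stand beside the counts of other markers below. Over the 6 pairs all 8 were lower on the lesion than on the contralateral side (median -0.26), while 49.5% of all tested probe sets were higher. Against the 7 control arrays 4 were higher and 4 lower on the transection lesion side (median 0.04). For lysolecithin 6 were higher and 2 lower (median 0.24), beside 49.1% and 51.4% of all tested probe sets higher. No single marker passed the limma threshold. The summed signal of the 8 was 10018.8 on the healthy array, 10817.1 to 10840.9 on saline contralateral and 11196.5 to 13315.2 on saline lesion arrays. It was 12998.9 to 16723.1 on lysolecithin lesion, 13920.0 to 15258.9 on transection lesion, 15146.6 to 16804.8 on transection contralateral and 15422.4 to 17611.0 on lysolecithin contralateral arrays. The defining markers Itgam, Cx3cr1 and Csf1r were called Present on no array.

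The summed signal of 9 astrocyte markers was 48996.8 on the healthy array, 55139.5 to 59406.2 on saline lesion, 60690.8 to 62942.9 on lysolecithin lesion and 55001.5 to 59780.2 on transection lesion arrays. Of these 9, 6 were higher and 3 lower than saline on the lesion side after either injury, with medians of 0.07 and 0.08. They ranged from -0.09 to 1.31 after transection and from -0.14 to 0.99 after lysolecithin. On the contralateral side 7 were higher and 2 lower after transection (-0.03 to 1.27), and 5 and 4 after lysolecithin (-0.58 to 1.39). None passed the limma threshold there or on the lesion side. Of the 13 listed, Gfap had no probe set and Serpina3n was called Present on no array. C3 is also made by the liver and circulates in blood as a protein, which these arrays, measuring mRNA, do not read. Of 11 plasma-protein genes of the liver on the array, 3 were tested: Fgb, Fgg and Hpx, called Present on 4, 7 and 6 arrays. By their brightest probe sets Alb, Fga and Hp were Present on 2, 2 and 1 arrays. Apoa1, Apoa2, Ttr, Ahsg and Serpina1 were Present on none by the same reading. The summed signal of the 3 tested genes was 227.4 to 345.2 on saline lesion, 326.1 to 362.9 on lysolecithin lesion and 266.7 to 378.2 on transection lesion arrays. The sum was 282.1 to 309.4 on saline contralateral, 265.4 to 292.0 on lysolecithin contralateral and 382.0 to 437.0 on transection contralateral arrays, and 479.1 on the healthy array, where none of the 3 was called Present. On that side all 3 were higher than saline after transection (median 0.76), and 2 of 3 after lysolecithin (median 0.00).

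Other cell markers differed between the interventions as well, with no single gene past the limma threshold. Of 7 tested markers of meninges and choroid plexus, 6 were higher than saline on the lesion side after lysolecithin, with a median of 0.63, and their summed signal was 9617.6 to 13316.6 against 8396.6 to 9425.6. After transection 4 of the 7 were higher (median 0.16), with a sum of 7522.4 to 8199.9. The 3 tested genes of blood cells, including the globins Hbb and Hbb-b1, were all higher after lysolecithin on the lesion side (median 0.37), with sums of 8242.9 to 20166.5 that overlapped the 9542.8 to 12298.7 of saline, and 1 of 3 was higher after transection (median -0.13). Of the 7 neuronal markers 5 were lower than saline on the lesion side after either injury, with medians of -0.31 (transection) and -0.19 (lysolecithin). The part of any of these cells, or of blood, in the C3 and C1qb values was not tested.

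When both genes were set against each other, C3 (M29866_s_at) placed the arrays in a low set of saline and healthy arrays and a high set of lysolecithin and transection arrays. C1qb (X71127_at) followed this division in part, with overlap: saline arrays reached 1951.0 and the lysolecithin and transection arrays began at 1640.1. Because of this division, no correlation over all arrays is given between them. The saline lesion array of day 4 lay off the common course, with C1qb at 1951.0 and C3 at 282.4. The highest array for both genes was the lysolecithin contralateral array of day 10.

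**Figure D5:**
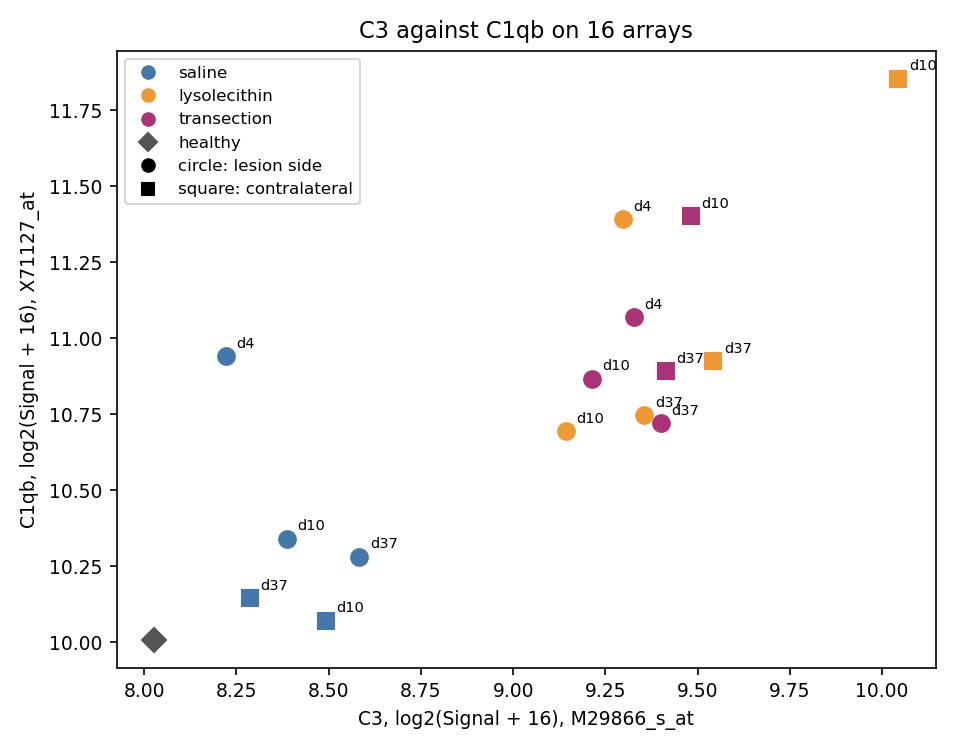
C3 (M29866_s_at, x axis) against C1qb (X71127_at, y axis), both as log2(Signal + 16), 1 point per array, coloured by intervention, with circles for the lesion side, squares for the contralateral side, a diamond for the healthy array and the day beside each point. The saline arrays lie to the left of 8.6 on the C3 axis and the lysolecithin and transection arrays to the right of 9.1.

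Likeness to C3 was ranked by Pearson's r of log2 values over the 16 arrays, as a description; the arrays share the low and high sets above. The closest genes were Timp2, an inhibitor of matrix metalloproteinases (r = 0.92), Cd53, a tetraspanin of leukocytes and microglia (0.90), Ctsh, a lysosomal protease (0.88), Slc14a1, a urea transporter (0.86), Aebp1 (0.86) and Serping1 (0.85). Timp2 signal was 915.2 to 1330.8 on the saline and healthy arrays and 1452.1 to 1777.3 on the other 10. Without the healthy array 3 of these 6 were still among the closest 6. C1qb was followed most closely by Grn, which encodes progranulin (0.92), Tspo, a mitochondrial protein raised in activated microglia (0.87), Timp1, an inhibitor of matrix metalloproteinases (0.85), Cd53 (0.85), RT1-DMb, of the class II antigen-loading complex (0.84), and Lgals3, which encodes galectin-3 (0.84), and 5 of these 6 remained without the healthy array. C1qb ranked 14th among the genes closest to C3, and C3 ranked 11th among those closest to C1qb; without the healthy array these ranks were 29 and 20.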

How the data were processed

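Total RNA was labelled with biotin and hybridised to 16 Affymetrix rat arrays, 1 per condition. The authors deposited, per the file headers, a linear Signal intensity for each probe set with its Detection call and the p-value behind that call, and the submitters' processing notes name MAS5. The series' value table, used as an alternative, holds deposited values on a log2 scale in 7773 of the probe sets, and its centring is not given in the sources used here. Scanner images and CEL files were not used here. Array count, not read depth, limits precision.

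Signal was used as log2(Signal + 16) without further scaling. Of 8799 probe sets, 4413 were tested, those called Present on at least 3 of 16 arrays and not control probe sets. Comparisons used limma 3.58.1 (R 4.3.3, eBayes with an intensity trend) with Benjamini-Hochberg adjustment over all tested probe sets and a threshold of 0.05. Lesion and contralateral fits had intervention and day as terms, side comparisons had the pair as a block, and the fit against 7 controls had no block. Tables and figures were made with Python 3.11.15, numpy 2.4.6, pandas 2.3.3 and matplotlib 3.10.9.

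A fold is "at least" where the dimmer group was Absent throughout; it sets group means against the higher of each array's lowest Present signal and its own signal. For C3 the own signal was the higher one on each saline array, so such a fold is a point estimate and not a lower confidence limit. Folds on this scale understate changes of low signals. Symbols came from the platform annotation, which gave 1 symbol to 6283 probe sets, several to 280 and none to 2236. Both members matched the RefSeq tables (GRCr8). Named were all C3 and C1qb probe sets, the listed complement genes on the array, and the 6 genes most like each member; the main probe set of a gene had the highest mean log2 signal among those tested. The members and lists were chosen with earlier results of these data known.

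Shared days were checked by correlating deviations from group means: lesion arrays of the same day gave r = 0.06 to 0.29 and other days at most 0.08. For the pairs, deviations were taken from the mean of the 6 arrays of each side. By these, 5 of 6 lesion arrays were closest to their own contralateral array, with r of -0.14 to 0.43 over the pairs. Shared intervention and day remain in these deviations, so the pair check cannot tell whether both sides came from the same animals.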

Additional observations from a re-analysis of the deposited data

Results flagged for a closer look

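The lesion minus contralateral difference of C1qb (X71127_at, log2) went one way after saline and the other after injury. It was 0.27 at day 10 and 0.14 at day 37 after saline, -1.16 and -0.18 after lysolecithin, and -0.54 and -0.17 after transection. The test of the difference from saline did not pass (limma adjusted p = 0.9996 for lysolecithin and 0.997 for transection), and X71127_g_at did not show it on every pair, with -0.03 and 0.38 after saline and -1.25 and 0.10 after lysolecithin.

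The same opposition was seen for C3 with X52477_at between saline, at 0.23 and 0.16, and lysolecithin, at -0.94 and -1.06. The difference of -1.20 had an unadjusted limma p of 0.0017 and did not pass after adjustment (0.9996). M29866_s_at gave -0.11 and 0.30 after saline, between arrays called Absent, and -0.90 and -0.19 after lysolecithin. Among the 7 control arrays, the 6 contralateral arrays and the 9 lesion arrays, no single array stood out for either gene by the gap to its nearest neighbour.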

How the results depend on the processing

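Of 574 alternative values of C3 and C1qb over the 13 comparisons, 530 kept their direction and their side of the limma threshold, 21 lost a call, 9 gained one and 14 changed sign, all 14 in differences that had not passed. Every loss was of C3 against saline on the lesion side, where the difference stayed positive. For transection it was 0.92 in each of the fits without a detection filter, without the intensity trend and without the day term (no replicate block), which lost the call, and 0.82 to 0.97 on leaving out 1 array. For lysolecithin the call was lost at 0.87 in the same 3 fits, at 0.77 with quantile normalization, 0.72 with median centring, 0.83 with the deposited value table and 0.56 with X52477_at, and the range on leaving out 1 array was 0.77 to 0.92. The cause of these losses was not tested. Median centring took out a shift of 0.11 between the arrays for transection and 0.15 for lysolecithin against saline, and the saline arrays lay 0.16 below the 7 controls.

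The sign changed for C1qb between transection and lysolecithin with X71127_g_at (0.028; -0.16 to 0.066 on leaving out 1 array). For C3 between days 10 and 4 it changed with the value table (0.067; -0.13 to 0.023), and between days 37 and 10 with the value table (-0.032) and X52477_at (-0.069). For C1qb between days 37 and 10 it changed with X71127_g_at (0.11; -0.13 to 0.048). C1qb against the controls, with days 10 and 37 alone and a replicate block, became -0.088 for transection and -0.16 for lysolecithin (-0.036 to 0.37 on leaving out 1 array). The C3 side difference of transection against saline became 0.039 with X52477_at. The causes were not tested. Contralateral differences from saline ranged, on leaving out 1 array, over 0.91 to 1.20 (C3) and 0.64 to 1.44 (C1qb) for transection and 1.22 to 1.59 and 0.88 to 1.68 for lysolecithin; the gained calls there rest on 1 residual degree of freedom, and a group left with 1 array was assumed to vary like the others.

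Counts of called probe sets moved more. The 32 of transection against saline on the lesion side became 0 without a filter, without the trend and without the replicate block, 20 with quantile normalization, and 0 to 56 on leaving out 1 array (0 without the saline array of day 4 or 10 or the lysolecithin array of day 4, and 56 without the saline array of day 37). The 7 of lysolecithin became 1 without a filter, 4 with Present on 8 arrays, 4 with quantile normalization, 3 with median centring, 1 without the trend, 29 with array weights, 0 without the replicate block and 1 to 95 on leaving out 1 array (1 without the lysolecithin array of day 4, 95 without the saline array of day 37). The 21 of transection against lysolecithin became 0 without a filter, the trend or the replicate block, 9 with a pseudocount of 1, 6 with median centring, 6 with the value table and 0 to 31 on leaving out 1 array. The 2 of day 10 against day 4 became 0 without a filter or the replicate block, 1 with quantile normalization, the value table or no trend, 4 with array weights and 0 to 5 on leaving out 1 array, and the 0 of day 37 against day 10 became 0 to 17. Against the controls the 1 of transection became 0 without a filter, with quantile normalization, without the trend and with contralateral controls only, 6 with the value table, 2 with the replicate block on days 10 and 37 and 0 to 64 on leaving out 1 array (64 without the transection array of day 37), and the 0 of saline became 1 with median centring, 4 with array weights, 2 with the value table and 0 to 1. The side test of transection against saline ranged over 0 to 1. On the contralateral side the 0 of transection became 2 with the value table and 1 to 54 on leaving out 1 array, and the 1 of lysolecithin, a probe set with no symbol (rc_AI176456_at), became 0 without a filter, with quantile normalization, median centring or array weights, without the trend and without the replicate block, 4 with the value table and 0 to 66 on leaving out 1 array. The replicate block changed no call of C1qb.

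With 1 array per condition, spread between animals was not measured, and a level called Absent is only a bound. The healthy condition is a single array that stood apart from the others.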
